A study of Mus musculus with 24 samples.

Results

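Expression of 10 genes of the blood vessel lining was followed in inguinal white adipose tissue, the subcutaneous fat depot of the groin, after a bout of exercise. They are Apold1 and Sox17, which were picked because they stood high after exercise at ZT15, and 8 endothelial markers that were picked as a steady background: Pecam1, Cdh5, Kdr, Tek, Tie1, Emcn, Cldn5 and Flt1. They were found by symbol, and all 10 were present among the 16233 genes of the table. ZT counts hours from lights on, so ZT15 is early in the active phase of a mouse and ZT3 early in its rest phase.

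The 24 libraries are from male C57BL6 mice aged 10 to 11 weeks and form 4 groups of 6: exercised at ZT15 (ZT15 RUN), sham at ZT15 (ZT15 SED), exercised at ZT3 (ZT3 RUN) and sham at ZT3 (ZT3 SED). Exercise was a bout of 1 hour, and sham mice spent the same time on an artificial treadmill. No genetic change is given for any group. The labels call the animals sampled at ZT3 or ZT15 and give no hour after the bout for a library. The design counts 6 per group, but no label ties each library to its own mouse, so a p-value here measures library to library spread, which may be partly technical. RNA came from whole tissue, in which fewer endothelial cells and less RNA per endothelial cell cannot be told apart.

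Endothelial cells line every vessel of the fat depot, and their surface proteins are the usual markers of the vessel bed in bulk RNA. Signalling systems of the receptor kinase kind hold that bed in its resting state, the VEGF receptors and the angiopoietin and Tie receptors, while claudin and cadherin junctions seal it. Apold1 encodes a membrane protein described in rodents as an early response gene of vessels, and Sox17 encodes a transcription factor of the SoxF family that is known for its part in arterial identity.

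The sequences before the start sites are shown so that the genes with the highest differences after exercise at ZT15 can be set beside the one with the lowest. RefSeq promoter windows (build GRCm38.p6) were matched for 7 of the 10 genes, which left Sox17, Pecam1 and Cdh5 without one. The 250 bases before the annotated start, 5′ to 3′, are printed for the 3 genes with a window that had the highest ZT15 differences, Apold1 (chr6:134981751-134982000, + strand), Cldn5 (chr16:18776597-18776846, + strand) and Flt1 (chr5:147726012-147726261, - strand), and for the one with the lowest, Tie1 (chr4:118489850-118490099, - strand). Capitals mark the TGACG core of the cyclic AMP response element on either strand (CGTCA where it lies on the other strand).
Apold1: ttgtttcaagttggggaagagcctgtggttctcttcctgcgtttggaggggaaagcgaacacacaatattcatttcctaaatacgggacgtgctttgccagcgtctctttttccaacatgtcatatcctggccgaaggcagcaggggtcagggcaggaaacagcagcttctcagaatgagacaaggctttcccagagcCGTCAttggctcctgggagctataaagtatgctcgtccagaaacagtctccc
Cldn5: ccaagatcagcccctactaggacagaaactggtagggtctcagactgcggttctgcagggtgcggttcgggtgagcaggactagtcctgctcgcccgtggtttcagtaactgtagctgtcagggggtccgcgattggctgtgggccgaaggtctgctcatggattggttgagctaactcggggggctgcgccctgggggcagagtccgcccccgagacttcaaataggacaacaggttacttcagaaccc
Flt1: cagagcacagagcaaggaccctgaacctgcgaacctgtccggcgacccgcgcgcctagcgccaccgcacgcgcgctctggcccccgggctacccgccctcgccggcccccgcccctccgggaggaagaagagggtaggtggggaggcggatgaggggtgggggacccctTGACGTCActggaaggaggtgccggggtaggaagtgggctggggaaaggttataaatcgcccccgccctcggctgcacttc
Tie1: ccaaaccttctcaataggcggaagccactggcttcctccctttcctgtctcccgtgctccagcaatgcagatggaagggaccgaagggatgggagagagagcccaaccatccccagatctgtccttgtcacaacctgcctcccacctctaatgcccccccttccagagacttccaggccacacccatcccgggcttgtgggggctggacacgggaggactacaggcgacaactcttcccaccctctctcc

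Of the 7 genes with a window, 2 held a TGACG core: Apold1 had 1, on the minus strand with its first base at -52, and Flt1 had 2 that overlap in one palindrome, at -81 and -78. It was in 20.8% of all 32851 RefSeq windows of 300 bases (250 before and 50 after the start). The ETS core GGAAG, a site of the Ets factors that endothelial cells use, was in 5 of 7 and in 71.4% of all windows. The HIF core ACGTG was found in Apold1 and in 19.6% of all windows, and the glucocorticoid receptor core AGAACA in Tek and in 19% of all windows. None of the 7 held a CArG box (1.63% of all windows), the AP-1 site TGANTCA (7.81%) or the E-box CACGTG (7.15%), which contains the HIF core. Each motif was searched on both strands, and a match or its absence describes only these letters.

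Values are the deposited normalized signal, that is reads divided by a TMM-adjusted library size, and differences are on the log2(value + 1) scale as exercised minus sham or ZT15 minus ZT3, with a standard error (SE). Libraries held 18.5 to 34.7 M (mega) recovered reads, and in each library Apold1 had 293 to 2193 reads, Sox17 231 to 1027, Emcn 441 to 1320 and Pecam1 3199 to 6213. The library differences in other cell types were large. Cd79a, a B cell receptor subunit, was above 5 in ZT3 RUN replicate 4, ZT15 SED replicate 5 and ZT15 SED replicate 3, and at most 1.33 in all others. Myh4, a fast muscle myosin, ranged between 0.631 in ZT15 SED replicate 5 and 22113 in ZT15 RUN replicate 6. The 8 endothelial markers were present in every library, so the label of the gene group fits the tissue: their summed signal was 730.5 to 1086 in ZT15 RUN, 665 to 877 in ZT15 SED, 613 to 977 in ZT3 RUN and 642 to 1012 in ZT3 SED libraries.

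At ZT15 Apold1 and Sox17 were higher in every exercised library than in any sham library, Cldn5 was higher in most, and the ranges of the other 7 markers overlapped. Because Apold1 and Sox17 were picked on this contrast and the markers for being steady, these values are a description and no test is read from them. Apold1 had a lowest, median and highest signal of 21.1, 66.5 and 86.2 in ZT15 RUN libraries, against 11.1, 12.8 and 15.5 in ZT15 SED libraries. The sham libraries lay close together, with a coefficient of variation of 11.5%, while the exercised ones spread widely at 42.2%, with replicate 3 lowest and replicate 2 next at 36.6. Its mean was 58.9 ± 24.9 in ZT15 RUN and 12.9 ± 1.49 in ZT15 SED libraries (SD, n = 6 each), a log2 difference of 1.97 ± 0.34 (SE).

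Sox17 had a lowest, median and highest signal of 18.0, 27.2 and 42.0 in ZT15 RUN libraries and of 13.4, 14.6 and 17.4 in ZT15 SED libraries. The groups did not overlap, but the lowest exercised library, replicate 3, lay just above the highest sham library, replicate 4. The means were 28.7 ± 8.85 in ZT15 RUN and 14.8 ± 1.37 in ZT15 SED (SD, n = 6 each), a log2 difference of 0.86 ± 0.21 (SE). ZT15 RUN replicate 3 was thus the lowest exercised library for both genes, and replicate 5 the highest for both. Groups that did not overlap with the exercised one higher were found for 1.00% of all genes, and for 2 of the 10 here.

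**Figure D1:**
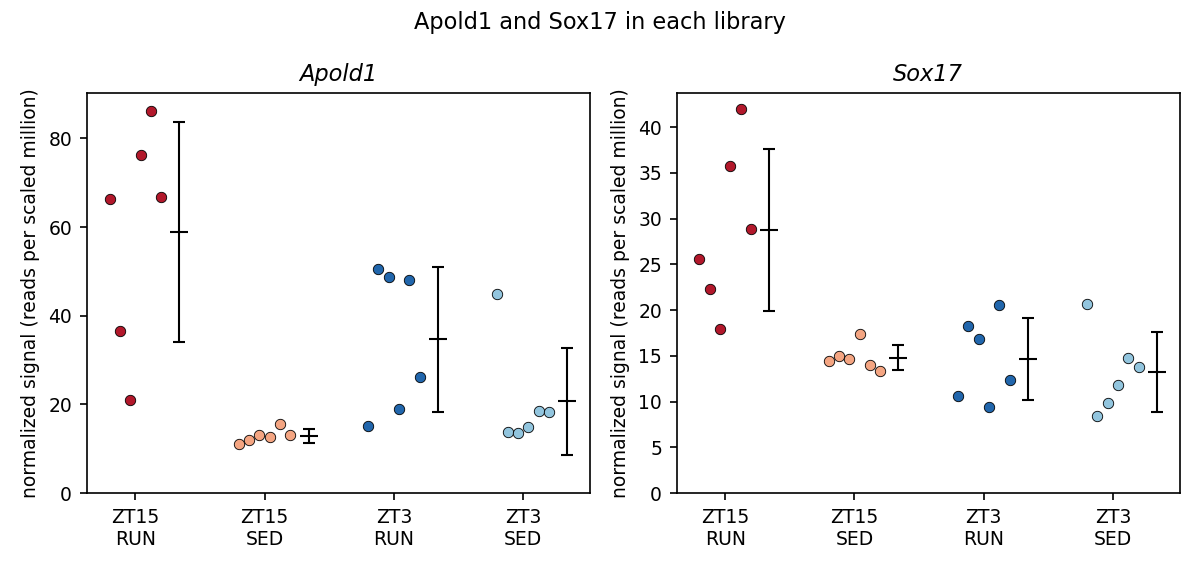
Normalized signal of Apold1 (left) and Sox17 (right) in each of the 24 libraries by group, one point per library, with the mean and SD beside the points. The 6 ZT15 RUN libraries lie above all 6 ZT15 SED libraries for both genes, and ZT3 SED replicate 1, at 44.9 for Apold1, stands apart from its group.

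Of the markers, Cldn5, the claudin of endothelial tight junctions, came nearest to this pattern. It had a lowest, median and highest signal of 39.6, 57.2 and 86.5 in ZT15 RUN libraries, against 27.4, 31.4 and 41.9 in ZT15 SED libraries. All 6 exercised libraries were above the sham mean, and 4 of 6 were above the highest sham library. The mean was 60.3 ± 19.4 in ZT15 RUN and 32.9 ± 5.26 in ZT15 SED (SD, n = 6 each), and the log2 difference was 0.81 ± 0.22 (SE), close to that of Sox17. Its ZT15 groups thus lay farther apart than those of the other 7 markers, although it was listed among the steady ones.

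The VEGF receptors came next. Flt1, a VEGF receptor that acts largely as a decoy, had a signal of 137 to 257 in ZT15 RUN libraries and 118 to 171 in ZT15 SED libraries, with 3 of 6 exercised libraries above the highest sham one and a log2 difference of 0.40 ± 0.19. Kdr, the main signalling receptor for VEGF-A, had 118 to 201 in ZT15 RUN and 113 to 146 in ZT15 SED libraries, with a log2 difference of 0.23 ± 0.14. For both receptors the exercised range began within the sham range and ended above it.

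Of the angiopoietin receptors, Tek, which encodes Tie2, had a signal of 57.7 to 100.1 in ZT15 RUN and 39.1 to 86.8 in ZT15 SED libraries, and its log2 difference was 0.23 ± 0.22. Tie1, the partner receptor of Tie2, had a signal of 50.9 to 82.6 in ZT15 RUN and 52.7 to 72.4 in ZT15 SED libraries, with a log2 difference of 0.09 ± 0.14. The groups overlapped for both receptors.

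The adhesion and surface genes also had overlapping groups. Cdh5, the cadherin of endothelial adherens junctions, had a log2 difference of 0.15 ± 0.15 at ZT15, with signals of 138 to 208 in ZT15 RUN and 118 to 193 in ZT15 SED libraries. Emcn, a sialomucin of veins and capillaries, had signals of 25.4 to 38.5 in ZT15 RUN and 24.6 to 33.8 in ZT15 SED libraries, and differed by 0.11 ± 0.16 on the log2 scale. Pecam1, the adhesion molecule CD31, had a mean of 156 ± 23.3 in ZT15 RUN and 156 ± 26.7 in ZT15 SED libraries (SD, n = 6 each), and its log2 difference was 0.00 ± 0.12. Its highest ZT15 SED signal, 198, was in replicate 5, a library with Cd79a above 5. Without the libraries above that limit the Pecam1 difference was 0.09. The part of the cell mixture in the Pecam1 values was not tested.

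**Figure D2:**
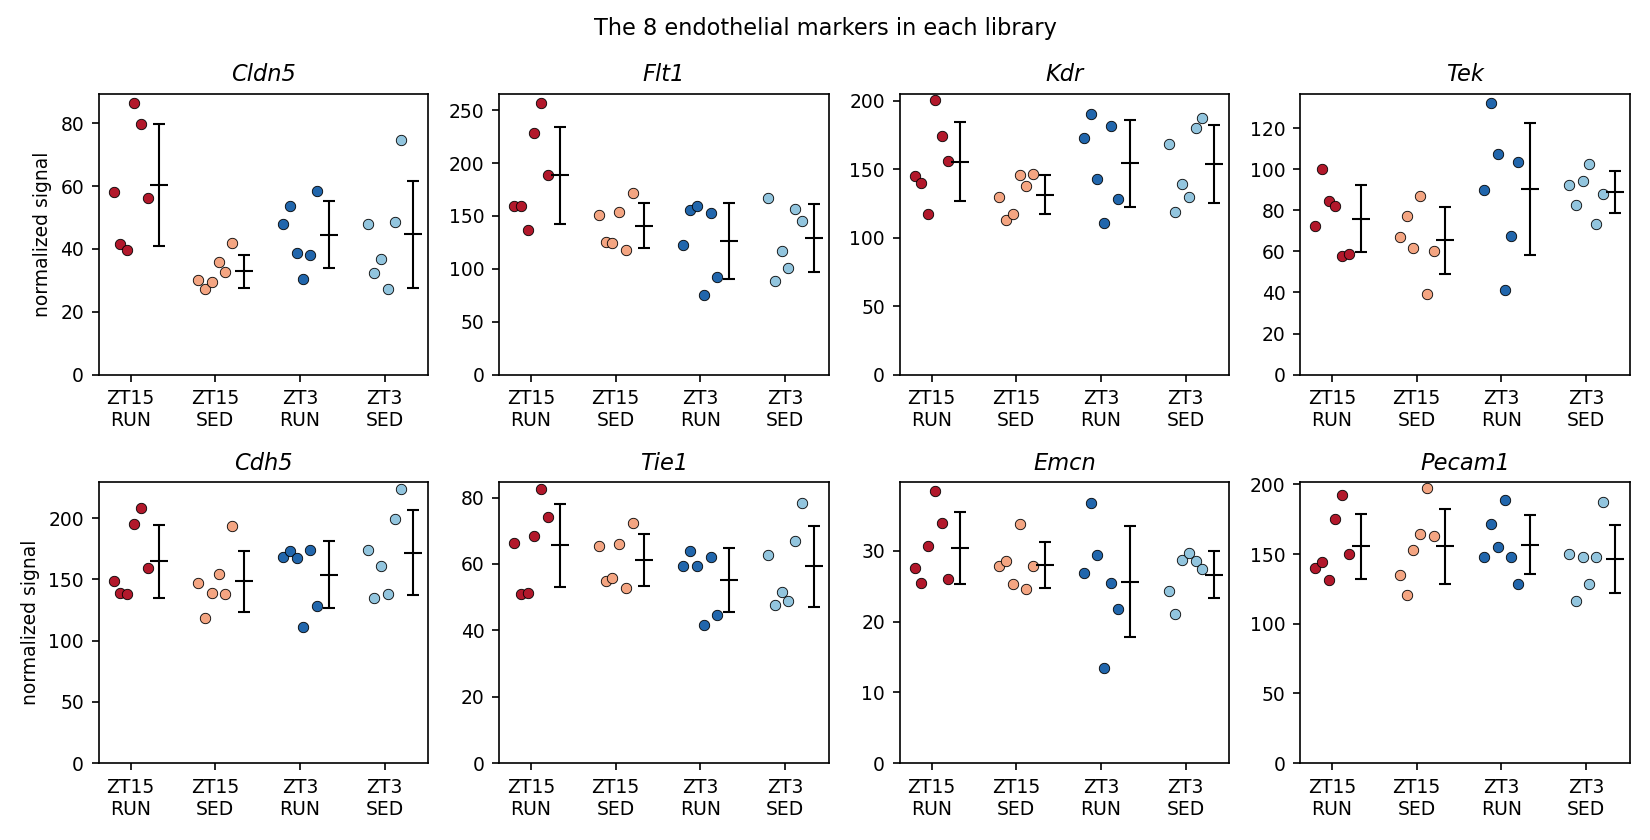
Normalized signal of the 8 endothelial markers in each library by group, one point per library, with the mean and SD beside the points; each panel has its own axis from 0. Cldn5 is higher in ZT15 RUN than in ZT15 SED libraries, 60.3 against 32.9 on average, while the Pecam1 groups share nearly one range.

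In the fit over all genes (limma with Benjamini-Hochberg adjustment, threshold 0.05), 1 of the 10 genes, Apold1, was past the threshold at ZT15, against 0.641% of all genes, and nothing is read from this because the contrast chose the genes. Sox17 lay just short of the threshold (limma, adjusted p = 0.0521), and settings that moved it across are given in the closing part. Other settings moved it away: the adjusted limma p was 0.267 with the mean of the 8 markers as a covariate. It was 0.162 without ZT15 RUN replicate 5. The log2 difference was above 0 for 10 of 10 genes and for 50.7% of all genes. For 4 of the markers that sign rested on the processing: Pecam1 was at -0.10 under quantile normalization and also below 0 with edgeR and without any one of ZT15 RUN replicate 4 or 5 or ZT15 SED replicate 1 or 2, and Tek at -0.05, Tie1 at -0.03 and Emcn at -0.08 with lymphocyte and muscle scores as covariates.

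At ZT3, a contrast that shares no library with the one above, the pattern was not repeated by any gene past the threshold. Apold1 had a lowest, median and highest signal of 15.1, 37.2 and 50.7 in ZT3 RUN libraries, against 13.6, 16.6 and 44.9 in ZT3 SED libraries. In each group the libraries were split. Replicates 2, 3 and 5 of ZT3 RUN stood at 48.1 to 50.7, above every sham library, and replicates 1, 4 and 6 at 15.1 to 26.2. In ZT3 SED, 5 libraries lay at 13.6 to 18.5 and replicate 1 at 44.9. The means were 34.7 ± 16.3 in ZT3 RUN and 20.7 ± 12.0 in ZT3 SED libraries (SD, n = 6 each), and the log2 difference of 0.70 ± 0.34 (SE) did not pass (limma, adjusted p = 0.989).

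Without ZT3 SED replicate 1 the Apold1 difference at ZT3 was 0.95 (limma, adjusted p = 0.992), and without ZT3 RUN replicate 1 it was 0.90 (limma, adjusted p = 0.948). Its 95% confidence interval with all libraries ran between -0.00 and 1.41, so it took in both no change and a rise of more than 2-fold. Sox17 had a lowest, median and highest signal of 9.43, 14.6 and 20.5 in ZT3 RUN and of 8.40, 12.8 and 20.7 in ZT3 SED libraries. These ranges nearly coincide, and the log2 difference was 0.14 ± 0.21 (SE; limma, adjusted p = 0.989), with a 95% confidence interval between -0.29 and 0.57.

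The 8 markers at ZT3 differed by -0.16 ± 0.15 for Cdh5 to 0.10 ± 0.12 for Pecam1 on the log2 scale. Cldn5 had the same mean in both groups, 44.6 ± 10.6 in ZT3 RUN and 44.6 ± 17.0 in ZT3 SED libraries (SD, n = 6 each). Flt1 was at -0.05 ± 0.19, Kdr at -0.00 ± 0.14, Tek at -0.06 ± 0.22, Tie1 at -0.10 ± 0.14 and Emcn at -0.10 ± 0.16. In the fit over all genes 0 of 10 passed, against 0.00% of all genes, with edgeR and DESeq2 on recovered reads also at 0 and 2.27% of all genes under an unadjusted limma p of 0.05. The log2 difference was above 0 for 4 of 10 genes and for 51.8% of all genes. For Kdr, Tek, Emcn, Cldn5 and Flt1 that sign did not hold under every alternative setting. None of the 10 had ZT3 groups that did not overlap, against 0.0493% of all genes higher and 0.0246% lower.

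**Figure D3:**
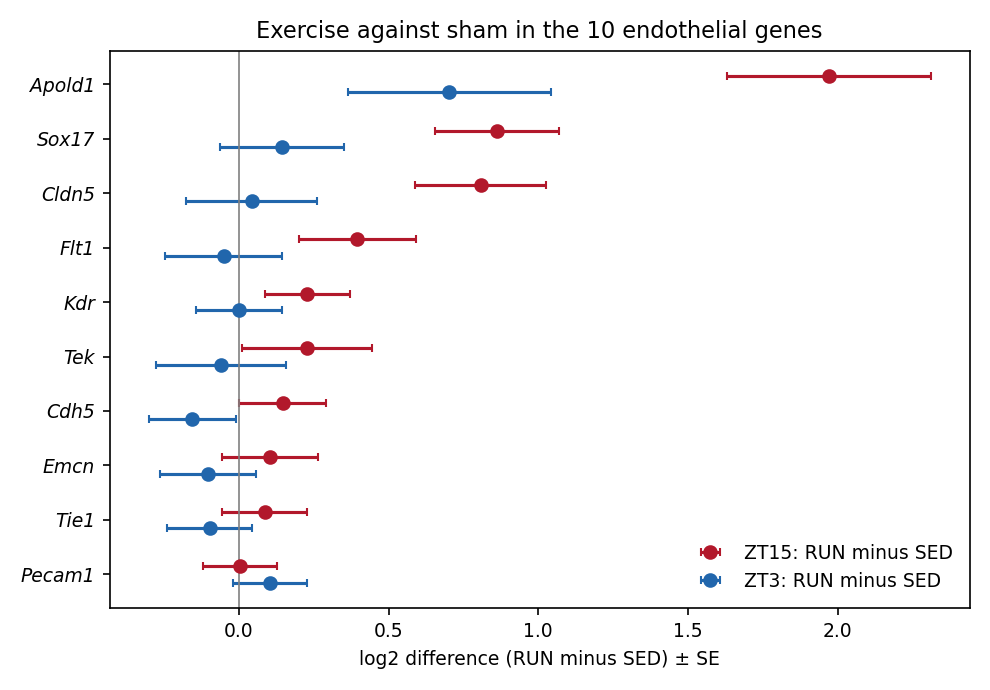
Log2 difference between exercised and sham libraries for each of the 10 genes, ± SE, at ZT15 (red) and at ZT3 (blue), from the fit over all genes. Apold1, Sox17 and Cldn5 lie at 1.97, 0.86 and 0.81 at ZT15, and Apold1 is the only one of the 10 above 0.5 at ZT3.

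The difference between the exercise effects at ZT15 and at ZT3 was 1.27 ± 0.48 for Apold1, 0.72 ± 0.29 for Sox17, 0.77 ± 0.31 for Cldn5 and 0.45 ± 0.28 for Flt1 on the log2 scale, and between -0.10 and 0.30 for the other 6. It holds the ZT15 contrast and is a description for these genes. In the fit over all genes (limma) 0 of 10 passed, against 0.00% of all genes, while 3 of 10 (Apold1, Sox17 and Cldn5) and 7.84% of all genes were under an unadjusted p of 0.05. Over all genes edgeR also passed 0 and DESeq2 passed 239, with 0 of the 10 in each. An effect of exercise that differs between the times was thus not shown for any of the 10.

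The day and night levels of sham mice give the ground from which the exercised values are read. Apold1 averaged 12.9 in ZT15 SED and 20.7 in ZT3 SED libraries, a log2 difference of -0.51 ± 0.34, in which ZT3 SED replicate 1 takes a large share: without it the value was -0.27. Tek had the lowest value of the markers, -0.47 ± 0.22, with a mean of 65.4 ± 16.3 in ZT15 SED and 88.8 ± 10.1 in ZT3 SED libraries (SD, n = 6 each). Cldn5 followed at -0.37 ± 0.22, and Sox17 was at 0.20 ± 0.21. The Tek value ran between -0.56 and -0.33 without one library and between -0.49 and -0.225 over the other settings. Its lowest ZT15 SED signal, 39.1, was in replicate 5, a library high in Cd79a. None of the 10 passed the threshold between the sham groups with limma, edgeR or DESeq2, against 1.18% of all genes with limma, and 1 of 10, Tek, was under an unadjusted limma p of 0.05. None had sham groups that did not overlap, against 1.20% of all genes higher and 1.31% lower.

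Between the exercised groups Sox17 had a lowest, median and highest signal of 18.0, 27.2 and 42.0 at ZT15 and of 9.43, 14.6 and 20.5 at ZT3, and 5 of 6 ZT15 RUN libraries were above the highest ZT3 RUN library. Its log2 difference was 0.92 ± 0.21, that of Apold1 0.75 ± 0.34 and that of Flt1 0.59 ± 0.19. Sox17 was the 1 gene of 10 past the threshold, against 4.19% of all genes (2.56% higher), and this count is a description, since the ZT15 RUN libraries also chose the gene. The other markers lay between -0.18 for Tek and 0.40 for Cldn5. Above 0 were 8 of 10 genes and 48.9% of all genes, and none of the 10 had exercised groups that did not overlap, against 1.50% of all genes higher.

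Set against the vessel bed of the same library, Apold1 and Sox17 kept their order of groups. The mean log2 signal of the 8 markers was 6.57 ± 0.22 in ZT15 RUN, 6.32 ± 0.15 in ZT15 SED, 6.39 ± 0.29 in ZT3 RUN and 6.43 ± 0.23 in ZT3 SED libraries (SD, n = 6 each). This mean was thus slightly higher after exercise at ZT15, but unevenly so, with log2 differences from 0.00 for Pecam1 to 0.40 for Flt1 and 0.81 for Cldn5. Apold1 minus this mean was -0.81 ± 0.60 in ZT15 RUN, -2.53 ± 0.23 in ZT15 SED, -1.38 ± 0.62 in ZT3 RUN and -2.12 ± 0.55 in ZT3 SED libraries. Every ZT15 RUN library, at -1.87 to -0.36, lay above every ZT15 SED library, at -2.73 to -2.15.

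For Sox17 the same quantity was -1.73 ± 0.24 in ZT15 RUN, -2.34 ± 0.17 in ZT15 SED, -2.47 ± 0.30 in ZT3 RUN and -2.65 ± 0.31 in ZT3 SED libraries (SD, n = 6 each). Here too the ZT15 groups did not overlap, with -2.08 to -1.39 in ZT15 RUN and -2.65 to -2.18 in ZT15 SED libraries. With the marker mean as a covariate in the fit, the ZT15 difference became 1.58 for Apold1 and 0.56 for Sox17, and neither was past the threshold, which Sox17 had not been without the covariate, while over all genes 7 were.

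Levels of different genes can be compared only per length, here as signal per kb of exon in GENCODE M21. In ZT15 SED libraries the order ran Cdh5 35.3 ± 5.97, Pecam1 25.0 ± 4.29, Cldn5 23.2 ± 3.71, Kdr 14.6 ± 1.57, Tek 13.9 ± 3.46, Tie1 12.4 ± 1.61, Flt1 10.4 ± 1.56, Emcn 5.18 ± 0.599, Apold1 3.62 ± 0.416 and Sox17 3.10 ± 0.287 per kb (SD, n = 6). The ranges of Pecam1 and Cldn5 overlapped, as did those of neighbours from Kdr to Flt1 and those of Apold1 and Sox17. Emcn lay below Flt1 and above Apold1 in every library. All genes were measured in the same libraries, so overlapping ranges do not show equal levels. Within each ZT15 SED library Tie1 was above Flt1, for instance, and no paired test was run. In ZT15 RUN libraries Apold1, at 16.5 ± 6.97 per kb, stood among Kdr (17.2 ± 3.21) and Tek (16.1 ± 3.47), and Cldn5, at 42.6 ± 13.7, was level with Cdh5 (39.2 ± 7.09). Sox17 was at 6.02 ± 1.85 per kb there, level with Emcn at 5.61 ± 0.941. At ZT3 Apold1 was at 9.72 ± 4.58 per kb in RUN and 5.80 ± 3.38 in SED libraries, and Sox17 was the lowest of the 10 in both, at 3.08 ± 0.942 in RUN and 2.77 ± 0.911 in SED.

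The signals of Apold1 and Sox17 had a correlation above 0.9 between libraries in 3 of the 4 groups, though none passed after adjustment. Pearson's r of the log2 signals over 6 libraries was 0.915 in ZT15 RUN (exact permutation p = 0.00417), 0.944 in ZT3 RUN (exact permutation p = 0.0222) and 0.902 in ZT3 SED (exact permutation p = 0.00417), against -0.268 in ZT15 SED, where both genes varied little (exact permutation p = 0.567). Spearman's rho was 1 in ZT15 RUN (exact permutation p = 0.00278, the smallest that 6 libraries allow), 0.771 in ZT3 RUN (exact permutation p = 0.103), 0.943 in ZT3 SED (exact permutation p = 0.0167) and -0.543 in ZT15 SED (exact permutation p = 0.297). Leaving out the 2 libraries farthest from the median of Apold1 gave r of 0.975 in ZT15 RUN, 0.916 in ZT3 RUN, 0.919 in ZT3 SED and -0.351 in ZT15 SED.

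These were 4 of 36 relations, Apold1 against each of the other 9 genes in each group. After Benjamini-Hochberg adjustment the two-sided exact permutation p of r was 0.075 in ZT15 RUN, 0.133 in ZT3 RUN, 0.075 in ZT3 SED and 0.692 in ZT15 SED for Sox17, and 0 of 36 relations were under 0.05, with 9 under it before adjustment. In ZT15 RUN the r with Apold1 was also 0.902 for Tie1, 0.884 for Cldn5, 0.859 for Kdr and 0.836 for Flt1, and it was -0.646 for Tek (adjusted exact permutation p from 0.113 to 0.432). Cdh5 was at 0.779, Pecam1 at 0.759 and Emcn at 0.317 there. Spearman's rho in ZT15 RUN was 1 for Cdh5 too (exact permutation p = 0.00278). It was 0.943 for Pecam1, Kdr and Flt1, 0.886 for Tie1 and Cldn5, 0.543 for Emcn and -0.771 for Tek. Without the 2 libraries farthest from the Apold1 median, r in ZT3 RUN was 0.996 for Flt1, 0.992 for Cdh5 and 0.99 for Tie1. These were above that of Sox17, and the other markers were below it. A close relation to Apold1 was thus not particular to Sox17.

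**Figure D4:**
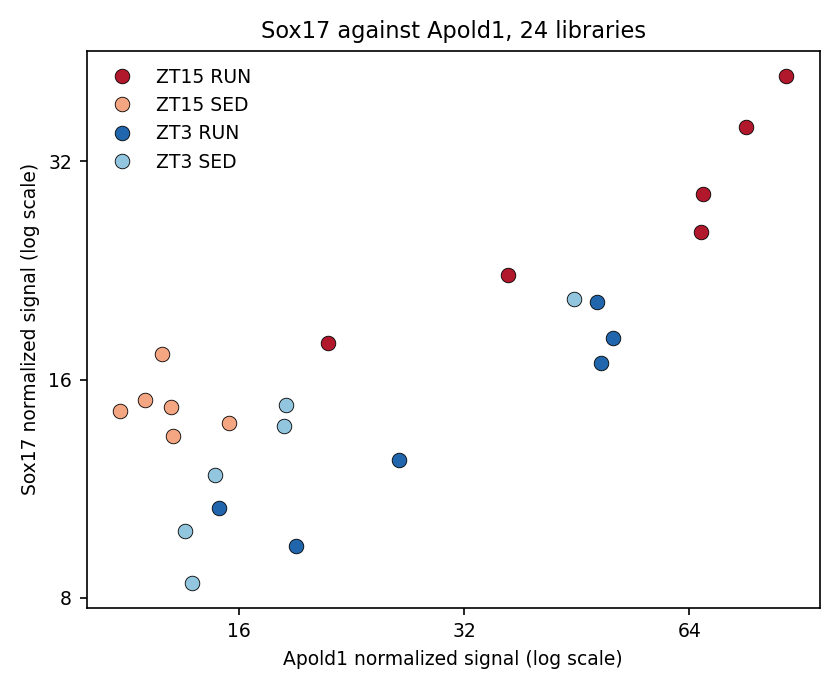
Sox17 signal against Apold1 signal in the 24 libraries, both axes on a log scale and one point per library, coloured by group. Within ZT15 RUN, ZT3 RUN and ZT3 SED the points climb together (r of 0.915, 0.944 and 0.902), and at a like Apold1 signal the ZT3 libraries have less Sox17 than the ZT15 RUN libraries.

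Across all 24 libraries, after taking away the group means, the genes most tightly bound to the rest of the marker group were Cdh5 (r of 0.897 with the mean of the other 7 markers), Kdr (0.882), Flt1 (0.867) and Tie1 (0.835). Emcn was at 0.711 and Cldn5 at 0.706, while Pecam1 was at 0.331 and Tek at 0.163. The same residual correlation was 0.894 between Apold1 and Sox17, 0.848 between Flt1 and Sox17, 0.706 between Flt1 and Apold1, and 0.01 between Tek and Apold1. These libraries share a tissue and its cell mixture, and the values are descriptions.

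Among 8021 genes of above median signal, those most like Apold1 over the 24 libraries were Crem (r of 0.941), Irs2 (0.934), Sik1 (0.934), Nr4a3 (0.933) and Atg101 (0.925). Their residual correlations after group means were 0.883, 0.891, 0.843, 0.844 and 0.847. Those most like Sox17 were Sowahc (0.938), Acer2 (0.936), Picalm (0.934), Sav1 (0.925) and Tinagl1 (0.920), with residual correlations of 0.858, 0.890, 0.874, 0.839 and 0.873. The 2 sets share no gene, and the r between Apold1 and Sox17 themselves was 0.824. Their residual correlation, 0.894, was above that of each gene named here.

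Further endothelial genes gave no call in either exercise contrast. Of 25 further endothelial markers, 18 had a log2 difference above 0 at ZT15 and 8 at ZT3, none passed at either time (limma; 4 at each time were under an unadjusted p of 0.05, against 12.7% of all genes at ZT15 and 2.27% at ZT3), and the median difference was 0.13 at ZT15 and -0.15 at ZT3, beside 0.00 and 0.01 over all genes. Without the 3 libraries high in Cd79a the medians were 0.09 at ZT15 and -0.01 at ZT3, with 17 and 11 of the 25 markers above 0. The most abundant of the 25 were Ptprb, the endothelial phosphatase that acts on Tie2, at 0.31 ± 0.17 at ZT15, and Cd34, a sialomucin of vessels and progenitors, at 0.27 ± 0.37. Myct1, named after its value was seen, lay below 0 and passed with DESeq2 alone, with 5.25 ± 0.868 in ZT15 RUN and 10.2 ± 2.38 in ZT15 SED libraries (SD, n = 6 each; log2 difference -0.83 ± 0.21, limma, adjusted p = 0.0613; below the sham mean in 6 of 6). With edgeR none of the 25 passed.

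The SoxF relatives of Sox17 had log2 differences below 0 at both times. Sox18 had 8.67 ± 2.75 in ZT15 RUN and 11.2 ± 2.11 in ZT15 SED libraries (SD, n = 6 each), a log2 difference of -0.37 ± 0.21, and Sox7 was at -0.18 ± 0.21, with neither past the threshold (limma, adjusted p = 0.468 and 0.768). At ZT3 they were at -0.44 ± 0.21 and -0.48 ± 0.21. The difference between Sox17 and its relatives was not tested.

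Of 13 VEGF and Tie ligands and coreceptors, 6 lay above 0 at ZT15 and none passed (limma; 1 was under an unadjusted p of 0.05), while edgeR and DESeq2 each passed 1, Vegfa. Vegfa, the main ligand of Kdr and Flt1, had 523 ± 267 in ZT15 RUN and 210 ± 31.6 in ZT15 SED libraries (SD, n = 6 each), a log2 difference of 1.14 ± 0.30 that missed the threshold (limma, adjusted p = 0.0819; above the sham mean in 6 of 6), and at ZT3 it was at -0.04 ± 0.30. The angiopoietins, ligands of Tek, were at -0.03 ± 0.22 for Angpt1 and -0.11 ± 0.14 for Angpt2 at ZT15. Angpt4 was higher in ZT15 SED than in ZT3 SED libraries (log2 difference 0.88 ± 0.19, limma, adjusted p = 0.0152), at a signal of 2.36 ± 0.614 in ZT15 SED against 0.847 ± 0.523 in ZT3 SED (SD, n = 6 each; above the ZT3 mean in 6 of 6).

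The lists of vessel segments and vessel functions gave few calls at ZT15, with 0 genes past the threshold in each (limma, and edgeR), and DESeq2 passed 1, Cldn5. Under an unadjusted limma p of 0.05 were 0 arterial and 0 venous, 1 capillary, 1 lymphatic, 2 Notch, 2 tip cell, 2 junction and 3 flow-responsive genes, beside 12.7% of all genes. Above 0 were 7 of 12 arterial genes (median log2 difference 0.04), 4 of 8 venous genes (-0.05), 8 of 10 capillary genes (0.24), 3 of 6 measured lymphatic genes (0.03), 6 of 12 endothelial Notch genes (-0.00), 3 of 11 tip cell genes (-0.11), 11 of 13 cell junction genes (0.15) and 11 of 12 flow-responsive genes (0.30). Among the arterial genes Sema3g was at 0.34 ± 0.17 and Fbln5 at 0.17 ± 0.21, and Notch1, the arterial Notch receptor, was at 0.09 ± 0.13. The junction and capillary lists contain Cldn5, Cdh5, Pecam1 and Kdr themselves. The capillary list also shares Fabp4, its most abundant gene, with the list of adipocyte markers, so its count and median are not specific to vessels. Of the flow-responsive genes, Cav1, the coat protein of caveolae, was at 0.07 ± 0.22, and Aqp1, the water channel of capillaries, was at 0.31 ± 0.17. At ZT3 no gene of these lists passed, and their medians lay between -0.19 for venous and 0.13 for lymphatic genes. Without the libraries high in Cd79a the ZT3 medians lay between -0.11 for endothelial Notch and 0.16 for capillary genes.

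Of the endothelial activation genes, 2 of 15 measured passed the threshold at ZT15 (limma), against 0.641% of all genes, both higher, with a list median of 0.37 and 12 of 15 above 0. Adamts1, a secreted metalloprotease that cleaves proteoglycans, rose to 120 ± 29.2 in ZT15 RUN libraries, against 54.0 ± 8.83 in ZT15 SED libraries (SD, n = 6 each; log2 difference 1.11 ± 0.21, limma, adjusted p = 0.0170). Adamts4, a related protease, rose to 6.55 ± 2.92 in ZT15 RUN libraries, against 2.53 ± 0.587 in ZT15 SED libraries (SD, n = 6 each; 1.04 ± 0.24, limma, adjusted p = 0.0373). Both were above the sham mean in 6 of 6 exercised libraries. With edgeR 3 of the list passed (Adamts9 too). Neither call held without the 3 libraries high in Cd79a, where the differences were 0.97 for Adamts1 (limma, adjusted p = 0.0605) and 1.00 for Adamts4 (limma, adjusted p = 0.0791). Over 37 alternative settings Adamts1 passed in 32 and Adamts4 in 21, and Adamts1 was lost without ZT15 RUN replicate 4 or replicate 5. Adamts4 was also lost without any one of the 6 ZT15 SED libraries, without ZT15 RUN replicate 1, 4, 5 or 6, or without ZT3 SED replicate 4. At ZT3 none of the list passed.

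Of the vascular list genes that passed between the times, 3 are given here. Adamts4 was lower in ZT15 SED than in ZT3 SED libraries, at 2.53 ± 0.587 against 13.1 ± 1.44 (SD, n = 6 each; log2 difference -2.01 ± 0.24, limma, adjusted p = 5.88e-05). F3, tissue factor of the clotting cascade, was higher in ZT15 RUN than in ZT3 RUN libraries, at 64.4 ± 11.4 against 38.1 ± 10.8 (SD, n = 6 each; 0.76 ± 0.15, limma, adjusted p = 0.0056). Aqp1 was higher in the same comparison, at 422 ± 94.1 against 260 ± 55.1 (SD, n = 6 each; 0.70 ± 0.17, limma, adjusted p = 0.0204). Each of the 3 differences was shared by 6 of 6 ZT15 libraries, set against the ZT3 mean. With only the exercised groups in the fit, F3 (limma, adjusted p = 0.0642) and Aqp1 (limma, adjusted p = 0.0912) did not pass. The Aqp1 call was also lost under quantile normalization, without the 3 libraries high in Cd79a, where the difference was 0.60 (limma, adjusted p = 0.0508), and without ZT15 RUN replicate 4 or 5 or ZT3 RUN replicate 4.

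**Figure D5:**
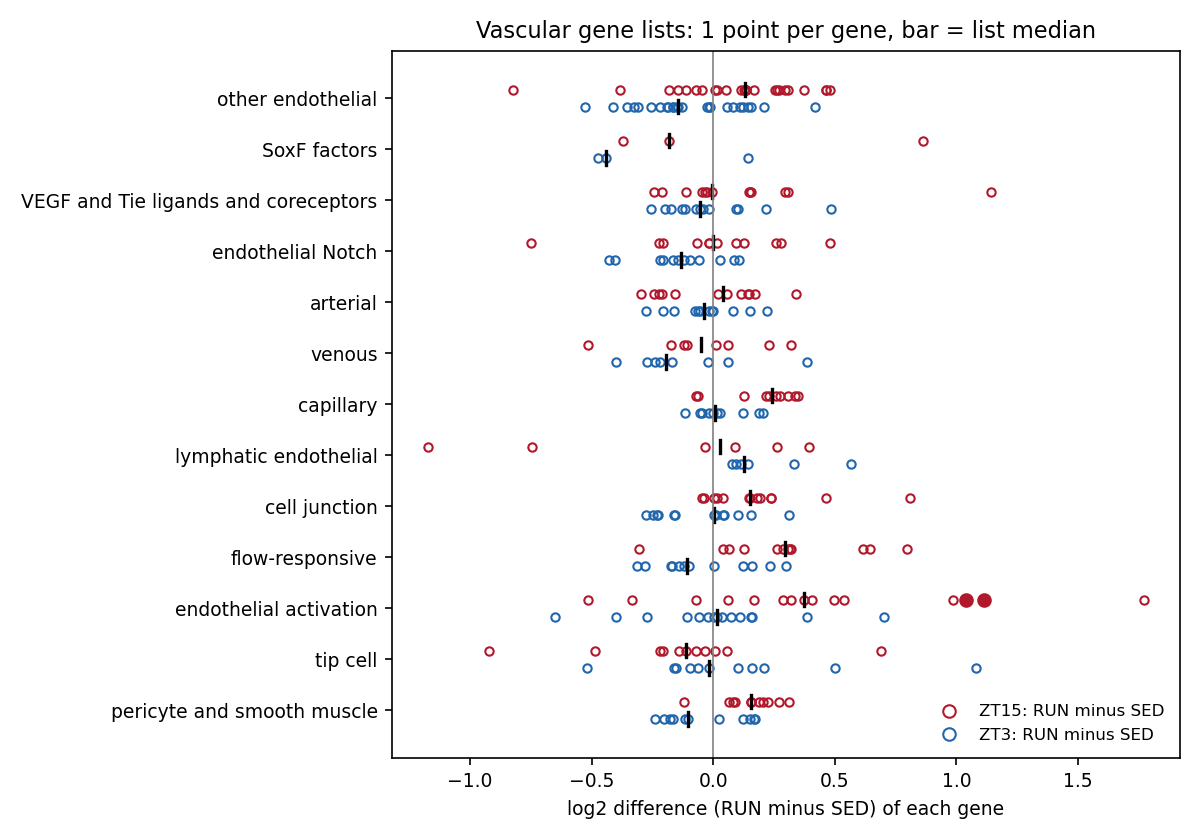
Log2 difference (exercised minus sham) of every measured gene of 13 vascular lists at ZT15 (red) and ZT3 (blue), one circle per gene, filled where the gene passed the threshold, with a bar at the list median. Only Adamts1 and Adamts4, both in the endothelial activation list at ZT15, are filled, and most medians lie within 0.3 of 0.

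Several marker lists of other cell types also differed in the ZT15 contrast. All 20 lymphocyte markers were below 0 (median log2 difference -1.57), with summed signals of 19.4 to 41.6 in ZT15 RUN and 26.4 to 1501 in ZT15 SED libraries, and all 16 skeletal muscle markers were above 0 (median 0.80), with sums of 193 to 50140 in ZT15 RUN and 45.2 to 45580 in ZT15 SED libraries. Of 9 Schwann and nerve markers, 9 were above 0 at ZT15 (median 0.44) and 9 at ZT3 (0.31), with a median sum of 369 in ZT15 RUN and 285 in ZT15 SED libraries; their part in the results above was not tested. None of these genes passed the threshold in either exercise contrast with limma or edgeR, while 1 lymphocyte, 0 muscle and 3 Schwann markers were under an unadjusted limma p of 0.05 at ZT15. DESeq2 passed 17 of the 20 lymphocyte markers at ZT15 and 0 of the other 2 lists. No marker gene was at 0 in every library of a group. The other list medians at ZT15 were between 0.02 and 0.43: 10 of 11 pericyte and smooth muscle markers were above 0 (median 0.16), 8 of 10 adipocyte markers (0.14), 7 of 10 fibroblast markers (0.17), 6 of 10 macrophage markers (0.02), 7 of 9 measured blood cell markers (0.07) and 6 of 6 thermogenic markers (0.43). Without the 3 libraries high in Cd79a the lymphocyte median was -0.14 and the muscle median 0.06. The ZT15 difference was then 2.04 for Apold1 and 0.84 for Sox17, against 1.97 and 0.86 with all libraries. With lymphocyte and muscle scores as covariates Apold1 was at 1.88 and Sox17 at 0.75. Sox17 was short of the threshold in both settings (limma, adjusted p = 0.112 and 0.099).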

How the data were processed

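Total RNA of 24 inguinal fat libraries was sequenced after removal of ribosomal RNA with a stranded kit, per the labels' protocols. The tools used upstream were limma 3.48.3, featureCounts, Subread 1.6.2 and STAR, per the submitters' processing notes, which give no role or order. Build, annotation, strand setting and gene filter: not given in the sources used here, so overlapping or antisense genes cannot be told apart. The deposited values are a normalized signal made by the authors: 100% were whole multiples of 1 read within 0.01 of a read, and the scaling equalled edgeR's TMM to 1.55e-15. In 60 pairs of libraries within groups the smallest chi-square was 23.3 per degree of freedom, so no library was a duplicate within its group.

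From these values, log2(value + 1) was fitted on all 16233 genes with limma 3.58.1 (R 4.3.3; lmFit, eBayes with trend) in one model of 4 group means, with Benjamini-Hochberg adjustment over all genes and a threshold of 0.05. This scale understates changes of low genes. edgeR 4.0.16 and DESeq2 1.42.0 on recovered reads, and the libraries without Cd79a above 5, were alternatives chosen after seeing the data. The fit was tested on simulated data. Correlations used exact two-sided permutation tests over 720 orders. Cell type scores are mean z scores of log2 levels over a marker list. Exon and promoter data are from GENCODE M21 and RefSeq (GRCm38.p6), used for lengths and windows.

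The genes and lists were chosen with earlier results of these data known. Named beside the 10 genes were, per list and contrast, up to 4 genes past the threshold or else the 2 most abundant, and for Apold1 and Sox17 the 5 genes of highest r; Sox7, Angpt1, Angpt2 and Adamts9 were added with their values known, and other names say so. Ccl21a, Csf3, Hbb-bs and Gp9 had no row. Replicate numbers follow the order of the records and pair nothing.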

Additional observations from a re-analysis of the deposited data

Results flagged for a closer look

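Apold1 in ZT3 SED replicate 1, at 44.9, stood apart from the other 5 sham libraries at ZT3, which lay at 13.6 to 18.5: its gap to the nearest was 0.841 of the group's range, above the Dixon limit of 0.625 for 6 libraries. The same library also had the highest Sox17 signal of its group, 20.7. It was the 1 such case among 40 sets of 6 libraries, the 10 genes in 4 groups, and chance alone gives about 1 in 20.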

How the results depend on the processing

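At ZT15, 1 of the 10 genes was past the threshold, and the count was 2 under median centring, 2 with only the groups compared, 2 with edgeR (Apold1 and Sox17 in each), 3 with DESeq2 (with Cldn5) and 0 with the marker mean as a covariate. Leaving out one library at a time gave 1 to 3, with 3 without ZT15 RUN replicate 3 and 2 without ZT3 RUN replicate 4 or 5 or ZT3 SED replicate 1 or 2. Between the exercised groups the count was 1, and it stayed at 1 without any one library. It was 0 with only the groups compared, 2 with the marker covariate and 2 with DESeq2 (Sox17 and Flt1). The marker covariate is a mean that contains each marker itself, so the markers cannot be judged under it, here or at ZT15. Between the exercised groups Apold1 passed in no alternative, so at least 1 of the 2 genes counted under that covariate was a marker. At ZT3, for the interaction and between the sham groups the count was 0 throughout.

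The Apold1 difference at ZT15 was 1.58 to 2.20 over 13 alternatives and 1.83 to 2.23 without one library, with a highest adjusted limma p of 0.0458 there, and that of Sox17 was 0.56 to 0.96 over the alternatives and 0.74 to 0.98 without one library. No difference past the threshold changed sign; 4 markers short of it did at ZT15, as given above. Over all genes the ZT15 count of 104 was 7 with the marker covariate, 19 with the replicate block of neighbouring title numbers, 22 without the libraries high in Cd79a, 561 with DESeq2, and 16 (without ZT15 RUN replicate 4) to 293 (without ZT3 RUN replicate 4) without one library. The sham time count of 191 was 287 with the replicate block of 8 title numbers, 543 with lymphocyte and muscle covariates, 548 with DESeq2 and 130 to 388 without one library. The exercised time count of 680 was 426 after quantile normalization, 109 with only the groups compared, 385 with the marker covariate, 1053 with lymphocyte and muscle covariates, 1590 with DESeq2 and 330 to 1004 without one library. The interaction count of 0 was 239 with DESeq2. The cause was not tested.

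Neighbouring title numbers had residual correlations of -0.536 to 0.883 in 12 pairs (median 0.25, 7 above 0.1), so not every pair was above 0.1 and the numbers were not taken as pairs; under that replicate block Apold1 stayed at 1.97 at ZT15 (adjusted limma p = 0.0495). That block was not run between the times, nor the fit on only the groups compared for the interaction. Counting error is small at 231 or more reads per gene and library, and the spread between libraries sets the limit.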
